A study of Danio rerio with 6 samples.

Results

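The set described here holds 10 zebrafish genes of haem synthesis and of the red cell (erythroid) programme: alas2, alad, urod, cpox, fech, gata1a, klf1, hemgn, epb41b and tfr1a. They were chosen by symbol from the 25920 genes of the deposited expression table, all 10 were found there, and all 10 passed the filter on low counts. RNA came from Tg(myl7:mCherry) fish, whose transgene uses the promoter of the heart muscle gene myl7 to make a red protein in heart muscle cells. All fish carried it. From 60 to 96 hours post fertilization (hpf) they were kept with the solvent DMSO (3 libraries) or with 100 µM DAPT (3 libraries), which blocks gamma-secretase, a membrane protease needed to release the active fragment of Notch receptors. The sample labels give hearts as the tissue, whereas the design text of the series speaks of embryos. The comparison asks which transcripts differ between the DAPT and DMSO libraries at 96 hpf.

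Haem, the iron-holding ring of haemoglobin, is made by a chain of enzymes that starts in the mitochondrion, runs through the cytosol and ends in the mitochondrion. The first step joins glycine to succinyl-CoA and is carried out by aminolevulinate synthase, of which alas2 encodes the red cell form and alas1 the form of other tissues. In red cell precursors the factors Gata1 and Klf1 switch on genes for globins, haem enzymes and the membrane skeleton, and transferrin receptors bring in the iron that ferrochelatase puts into the ring. Circulating red cells of fish keep their nuclei and can go on making transcripts. Zebrafish mutants in alas2, urod, fech, gata1a, epb41b and tfr1a are known for pale or short-lived red cells.

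The libraries held 20542549 to 21808613 counts. Correlations across genes were 0.989 to 0.994 between 2 libraries of the same group and 0.958 to 0.968 between groups. Nothing in the labels ties a library to its own clutch; the p-values here rest on library-to-library spread, part or all of which may be technical. Transcripts of other tissues were present in every library beside those of heart muscle. Marker genes of liver, retina, pancreas and skeletal muscle were all counted, with the sums given further on. In such bulk samples fewer cells of a type and less RNA per cell cannot be told apart. Levels are in CPM (counts relative to library size, scaled with TMM factors), given in the order of replicates 1, 2 and 3 or as mean ± SD (n = 3). Differences are log2 fold changes, DAPT minus DMSO, ± standard error, and adjusted p-values are from edgeR's quasi-likelihood test over all 22092 genes tested. Adjustment was by Benjamini and Hochberg, with a threshold of 0.05.

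Of the 10 genes 8 fell and 2 rose with DAPT. Both factor genes, the enzyme genes alad, urod and fech, the membrane gene epb41b, hemgn and the receptor gene tfr1a were lower, while alas2 and cpox were higher. Calls were frequent in these data: 46.6% of all genes tested passed, 24.3% lower and 22.4% higher. The median over the 10 genes was -0.65, with values from -1.28 to 0.56, while the median over all genes tested was -0.00434. In all 10 genes the ranges of the groups did not overlap, 2 higher and 8 lower with DAPT; this was so for 56.8% of all genes tested, 27.8% higher and 29.0% lower. In the plot of fold change against level alas2 and tfr1a are the most counted genes of the set and fech the least.

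**Figure D1:**
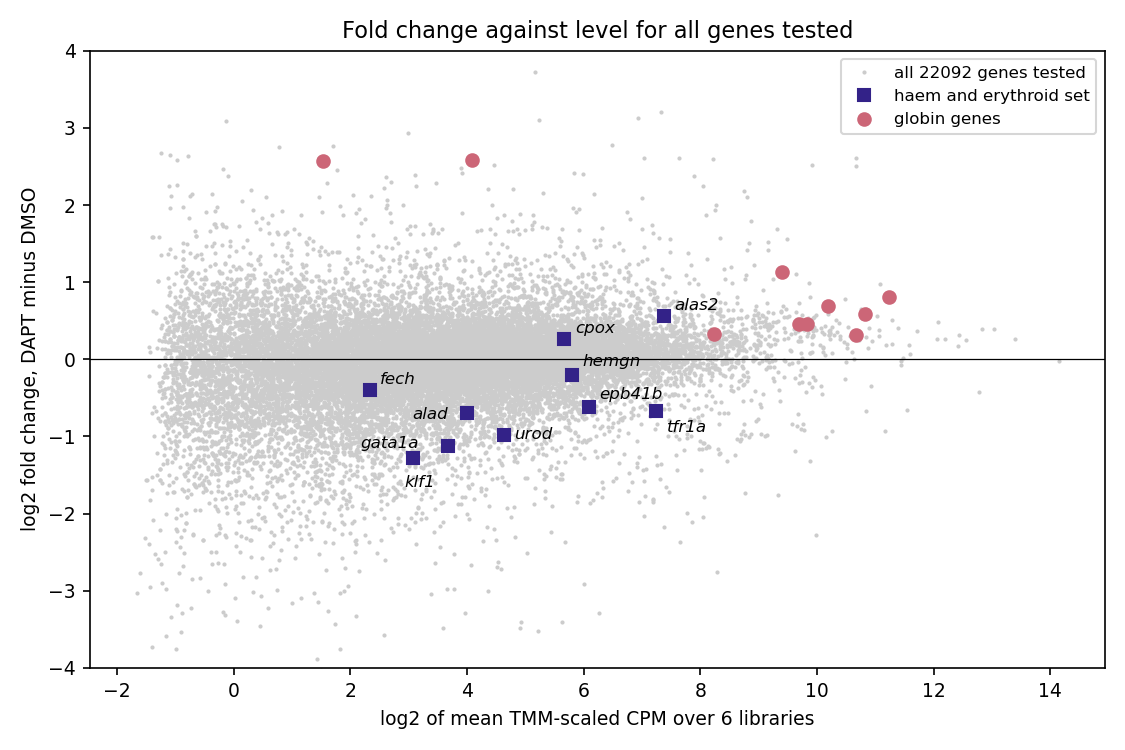
Log2 fold change (DAPT minus DMSO) against the log2 of the mean TMM-scaled CPM over 6 libraries; each grey point is 1 gene tested, squares are the 10 genes of the set and circles the 10 globin genes tested. The squares run from klf1 at -1.28 to alas2 at 0.56, and all circles lie above 0; the vertical axis ends at 4 and -4, which leaves some grey points outside.

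The transcription factor genes had the largest falls of the set. The gene gata1a (gene ID 30481), which encodes the zinc finger factor that commits precursors to the red cell fate, had 18.0, 17.9 and 16.6 CPM with DMSO and 8.18, 7.22 and 8.65 CPM with DAPT. Every DAPT value was under every DMSO value, by a wide margin against the spread within a group. The log2 fold change was -1.12 ± 0.09 (adjusted p = 1.52e-06), a fitted ratio of 0.459. The gene klf1 (gene ID 30104), for a zinc finger factor that works with Gata1 on red cell genes, had 10.4, 13.5 and 11.7 CPM with DMSO and 5.69, 4.49 and 4.51 CPM with DAPT. Its ranges were also well apart, although its spread was wider, with a coefficient of variation of 13.1% in DMSO and 14.0% in DAPT libraries. It changed by -1.28 ± 0.13 (adjusted p = 1.02e-05), to a ratio of 0.413.

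The gene hemgn (gene ID 564833) encodes hemogen, a nuclear protein of blood-forming cells. It had 56.0, 64.0 and 58.5 CPM with DMSO and 55.1, 50.2 and 50.1 CPM with DAPT. The highest DAPT value lay just under the lowest DMSO value, so the groups were barely separate. The change of -0.20 ± 0.07 (adjusted p = 0.0272) was the smallest of the set. It did not pass with DESeq2 (-0.19, adjusted p = 0.0592), nor without DMSO replicate 2 (-0.14, adjusted p = 0.101), DAPT replicate 2 (-0.18, adjusted p = 0.10) or DAPT replicate 3 (-0.17, adjusted p = 0.116).

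The other genes of the list on red cell transcription moved in both directions. The list held 16 genes, of which 8 fell, 4 rose and 4 did not pass. Its median was -0.17. Not all of its genes are particular to red cells. With DMSO the highest levels on the list were those of klf3 (85.6 TPM, a level per length) and ldb1a (58.5 TPM). The share called on the list was above the 46.6% of all genes tested. The share that fell was above the 24.3% of all genes called lower. The share that rose was close to the 22.4% of all genes called higher, so the number of rises is no feature of this list. Beside gata1a and klf1, the genes that fell by most were those for the erythropoietin receptor epor (-1.13 ± 0.12; 9.35 ± 0.588 to 4.27 ± 0.565 CPM), for the Krüppel-like factor klf17 (-1.09 ± 0.10; 17.3 ± 1.7 to 8.14 ± 0.241 CPM) and for the leucine zipper factor nfe2 (-1.09 ± 0.17). The gene tal1, for a helix-loop-helix factor of blood and vessel precursors, changed by -0.70 ± 0.07, and gfi1b, for a repressor of red cell and platelet precursors, by -0.70 ± 0.15. The rises were those of gfi1aa (1.02 ± 0.19) and gfi1ab (0.75 ± 0.15), relatives of gfi1b, of ldb1b and of zfpm1. The gene ldb1b (0.53 ± 0.11) encodes a cofactor that binds Lmo2, and zfpm1 (0.42 ± 0.11) encodes a Gata cofactor. Levels of gfi1aa and gfi1ab were low, at 1.40 ± 0.215 and 2.39 ± 0.179 CPM with DMSO. The genes lmo2 (-0.14), ldb1a (-0.10), bcl11aa (0.04) and klf3 (0.12) did not pass. Of these, lmo2 passed with library totals alone (-0.24, adjusted p = 0.024 in edgeR) and on the authors' TPM scale, a level per length (-0.28, adjusted p = 0.00599 in limma), where ldb1a also passed (-0.27, adjusted p = 0.0252). The sign of bcl11aa turned with library totals (-0.061) and on the TPM scale (-0.11), and that of klf3 on the TPM scale (-0.026). The rise of zfpm1 was lost on the TPM scale (0.26, adjusted p = 0.0912) and without DAPT replicate 3 (0.37, adjusted p = 0.0538). Deposited counts of tal1 and lmo2 were not all whole and so included some divided reads. What these reads were shared with is not given.

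**Figure D2:**
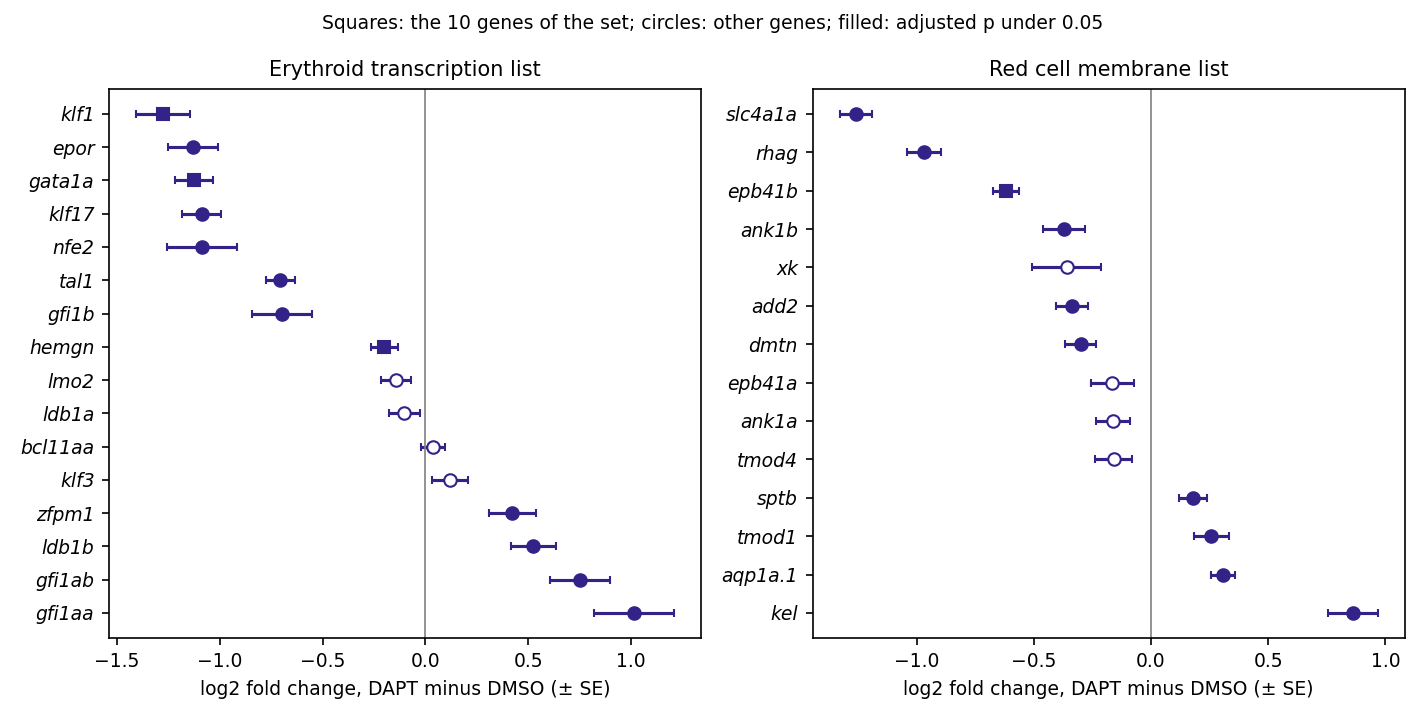
Log2 fold change (DAPT minus DMSO) ± standard error of the genes on the lists of red cell transcription and red cell membrane, sorted by value; squares are genes of the set, circles other genes, and filled symbols passed an adjusted p of 0.05. Genes at the top of the transcription panel, klf1, epor, gata1a, klf17 and nfe2, lie between -1.28 and -1.09, while gfi1aa at the bottom lies at 1.02.

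Markers of other blood cells are read against the 46.6% of all genes tested that passed. On the thrombocyte list 4 of 6 genes fell, among them fermt3b (-1.60 ± 0.11) and itga2b (-1.54 ± 0.22), and 2 did not pass; the summed level was 44.3 to 47.7 CPM in DMSO and 33.8 to 38.6 CPM in DAPT libraries. Over the 13 alternative analyses that tested it, itga2b ran from -1.69 to -0.76, past the threshold in each. Thrombocytes, the fish counterpart of platelets, also use gata1a, nfe2 and gfi1b. On the list of blood stem and progenitor cells 2 of 7 fell, myb (-1.24 ± 0.06; 77.7 ± 3.48 to 32.9 ± 1.67 CPM) and gata2b (-0.98 ± 0.31), and 5 did not pass, a share called of 28.6%, with sums of 319 to 334 and 283 to 307 CPM. The call of gata2b was lost without DMSO replicate 2, DAPT replicate 2 or DAPT replicate 3 (-0.94 to -0.73). Macrophage genes summed to 62.3 to 63.1 CPM with DMSO and 59.0 to 60.2 CPM with DAPT, where 2 of 6 fell (33.3%), mpeg1.1 (-0.35 ± 0.08) and cxcr3.2 (-0.43 ± 0.13), the latter not with DESeq2 (adjusted p = 0.0729) or without DAPT replicate 2 (adjusted p = 0.0638). Both of these shares were under that of all genes, but on lists of only 7 and 6 genes nothing is read from this. Of 6 genes on the neutrophil list 4 fell, including cpa5 (-0.72 ± 0.08), 1 rose, srgn (0.75 ± 0.07), and 1 did not pass. The sums were 427 to 493 and 340 to 355 CPM. Not all genes of this list are particular to neutrophils, cpa5 and srgn among those that are not. No marker on these lists was at 0 in any library. The part of these cells in the values of gata1a and the other factor genes was not tested.

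Among the 5 haem enzyme genes of the set alas2 and cpox rose and alad, urod and fech fell. The gene alas2 (gene ID 64607) had 116, 161 and 128 CPM in DMSO libraries and 206, 181 and 208 CPM in DAPT libraries. All DAPT values were above all DMSO values, yet DMSO replicate 2 came near the lowest of them, and the coefficient of variation among DMSO libraries, 17.3%, was the highest of the 10 genes. It rose by 0.56 ± 0.10 (adjusted p = 0.000865), a ratio of 1.47. Over 14 alternative analyses it ranged from 0.41 to 0.70, past the threshold in each.

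The second enzyme, aminolevulinate dehydratase, condenses pairs of aminolevulinate in the cytosol and is encoded by alad (gene ID 550338). Its levels were 18.3, 21.3 and 19.3 CPM with DMSO and 11.2, 12.3 and 12.8 CPM with DAPT. The groups were well apart, with a change of -0.70 ± 0.09 (adjusted p = 4.79e-05). Uroporphyrinogen decarboxylase, encoded by urod (gene ID 30617), trims the side chains of the ring in the cytosol. Its gene had 32.2, 35.6 and 31.0 CPM with DMSO against 16.7, 15.2 and 18.2 CPM with DAPT. That was the largest fall among the haem enzymes of the set, -0.98 ± 0.08 (adjusted p = 2.17e-06), to a ratio of 0.508.

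Coproporphyrinogen oxidase, encoded by cpox (gene ID 321294), acts next, at the mitochondrion. Unlike its neighbours in the pathway its transcript was higher with DAPT, at 53.5, 54.9 and 58.0 CPM against 46.9, 48.4 and 43.4 CPM with DMSO. The ranges did not overlap, but the rise was small at 0.26 ± 0.06 (adjusted p = 0.00416). On the TPM scale, where the median of all genes tested was -0.13, cpox stood at 0.10 and did not pass (adjusted p = 0.196); relative to that median it was 0.23.

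Ferrochelatase, which puts iron into the finished ring, is encoded by fech (gene ID 58215). Its transcript was the least counted of the set, with 5.93, 5.41 and 5.79 CPM with DMSO and 4.73, 4.64 and 3.67 CPM with DAPT. The groups did not overlap and the change was -0.40 ± 0.13 (adjusted p = 0.0276). The gene fech had its fewest counts in DAPT replicate 3, where counting error alone was 11.3% of the value. Deposited counts and TPM of fech also disagreed there: relative to its TPM the count of that library lay 11.9% under the mean of the 6 libraries, and 1 DMSO count was not whole. The call was lost with DESeq2 (-0.39, adjusted p = 0.087), without DMSO replicate 1 (-0.37, adjusted p = 0.0791) and without DAPT replicate 3 (-0.28, adjusted p = 0.125). On the TPM scale the values were 4.79, 4.46 and 4.87 with DMSO and 3.58, 3.38 and 3.22 with DAPT.

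**Figure D3:**
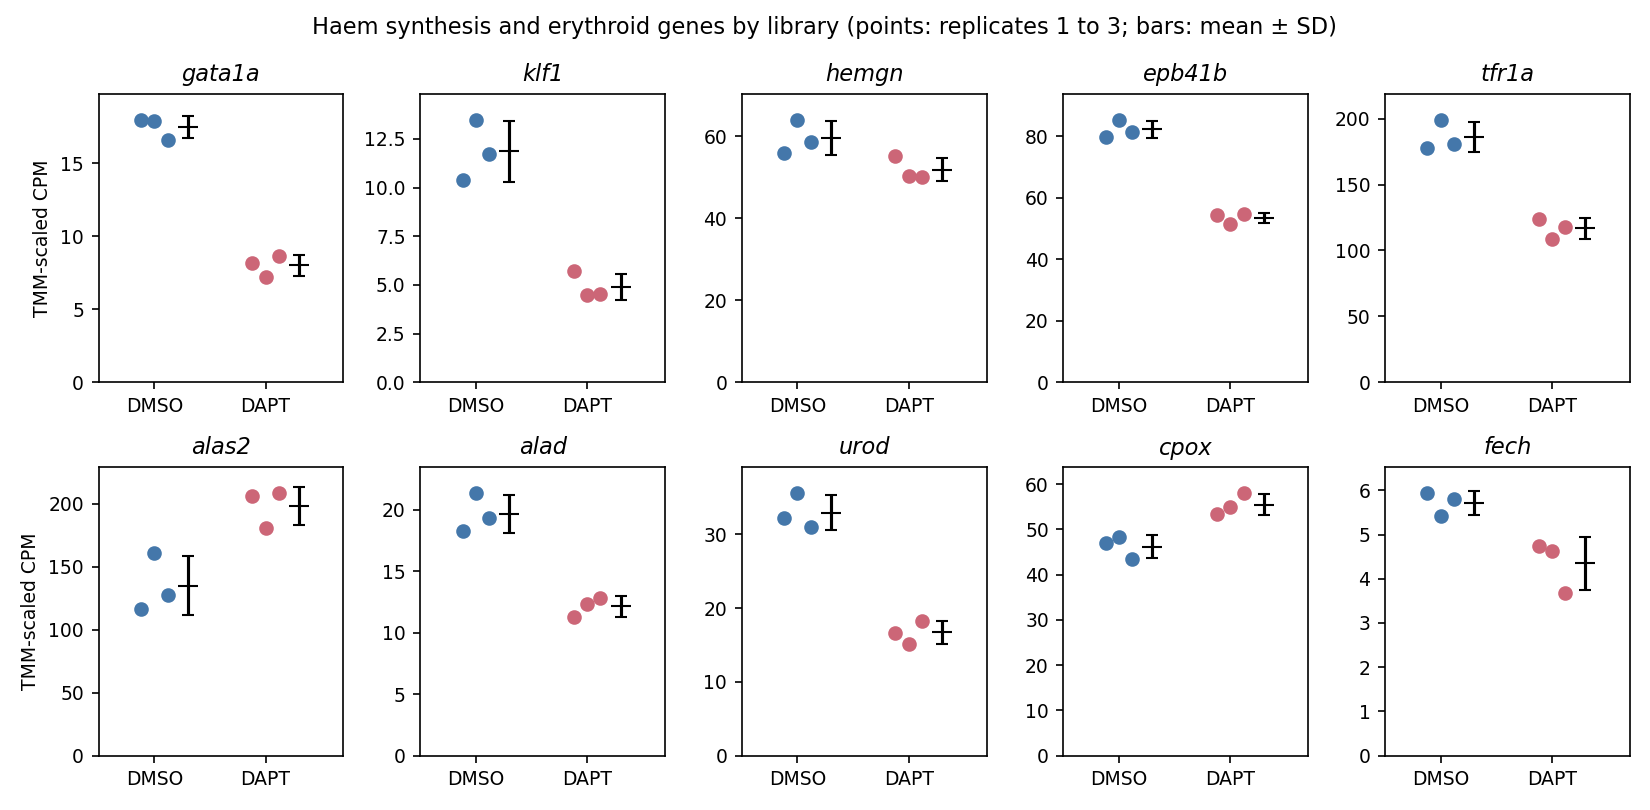
TMM-scaled CPM (vertical axis, from 0) of each of the 10 genes in every library; points are replicates 1 to 3 of the DMSO and DAPT groups from left to right, and bars give the mean ± SD. The groups are separate in every panel, widely for gata1a, klf1 and urod and narrowly for hemgn, where 55.1 CPM with DAPT lies under 56.0 CPM with DMSO.

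The whole haem synthesis list held these 5 genes and 5 more. All 10 were called, 7 lower and 3 higher, against 46.6% of all genes tested (24.3% lower and 22.4% higher). Their median was -0.43. The largest change was that of alas1 (gene ID 64608), which had 229, 240 and 204 CPM with DMSO and 525, 499 and 519 CPM with DAPT; it rose by 1.2 ± 0.07 (adjusted p = 8.69e-08). The genes hmbsa and hmbsb, paralogues for the enzyme that links the pyrrole units, changed by -0.39 ± 0.08 and -0.99 ± 0.08. The gene uros, whose enzyme closes the ring, changed by -0.46 ± 0.08, and ppox, whose enzyme acts just before ferrochelatase, by -0.82 ± 0.11. In the pathway order both synthase genes for the first step and cpox were thus higher, and the genes for all other steps were lower. The liver also makes haem, with alas1 in the first step. On the liver list 5 of 6 genes fell, including serpina1l (-1.82 ± 0.08, with some divided reads) and the transferrin gene tfa (-1.19 ± 0.08), and 1 did not pass, with sums of 2810 to 3292 CPM in DMSO and 1468 to 1511 CPM in DAPT libraries. The part of liver RNA in the values of the haem enzymes was not tested.

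Within each library alas2 was compared with alas1 on the TPM scale. The ratio of alas2 to alas1 was 0.411, 0.544 and 0.507 with DMSO and 0.318, 0.294 and 0.325 with DAPT. The groups did not overlap, and the ratio was lower in every DAPT library. The difference in the log2 ratio was -0.63, with an exact two-sided permutation p of 0.1, the smallest that 3 against 3 libraries can give.

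Levels per length showed how far the enzymes of the pathway stood from each other. With DMSO alas2 had 95.7 ± 17.1 TPM, followed by urod at 42.3 ± 2.95, cpox at 42.3 ± 1.86, tfr1a at 39.2 ± 2.71 and hemgn at 38.7 ± 3.05 TPM. Neighbours among these last 4 overlapped, and hemgn lay apart from the next gene. Then came epb41b at 28.1 ± 1.35 and alad at 26.0 ± 2.28 TPM, which overlapped, gata1a at 18.9 ± 0.513, klf1 at 8.26 ± 1.17 and fech at 4.71 ± 0.217 TPM. With DAPT the order was alas2 (126 ± 12), cpox (45.5 ± 2.64), hemgn (30.2 ± 1.74), tfr1a (22.1 ± 1.79), urod (19.3 ± 2.14), epb41b (16.4 ± 0.863), alad (14.3 ± 1.09), gata1a (7.78 ± 0.859), fech (3.39 ± 0.180) and klf1 (3.06 ± 0.433 TPM). The genes tfr1a, urod and epb41b each overlapped with the next, as fech did with klf1, while alad lay apart from gata1a. The TPM of alas2 was 2.25 ± 0.257 times that of urod with DMSO and 6.56 ± 0.241 times with DAPT, and 3.67 ± 0.342 and 8.82 ± 0.974 times that of alad. Against cpox the ratio was 2.26 ± 0.333 and 2.77 ± 0.214, where DMSO replicate 2 (2.58) lay above DAPT replicate 2 (2.55).

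**Figure D4:**
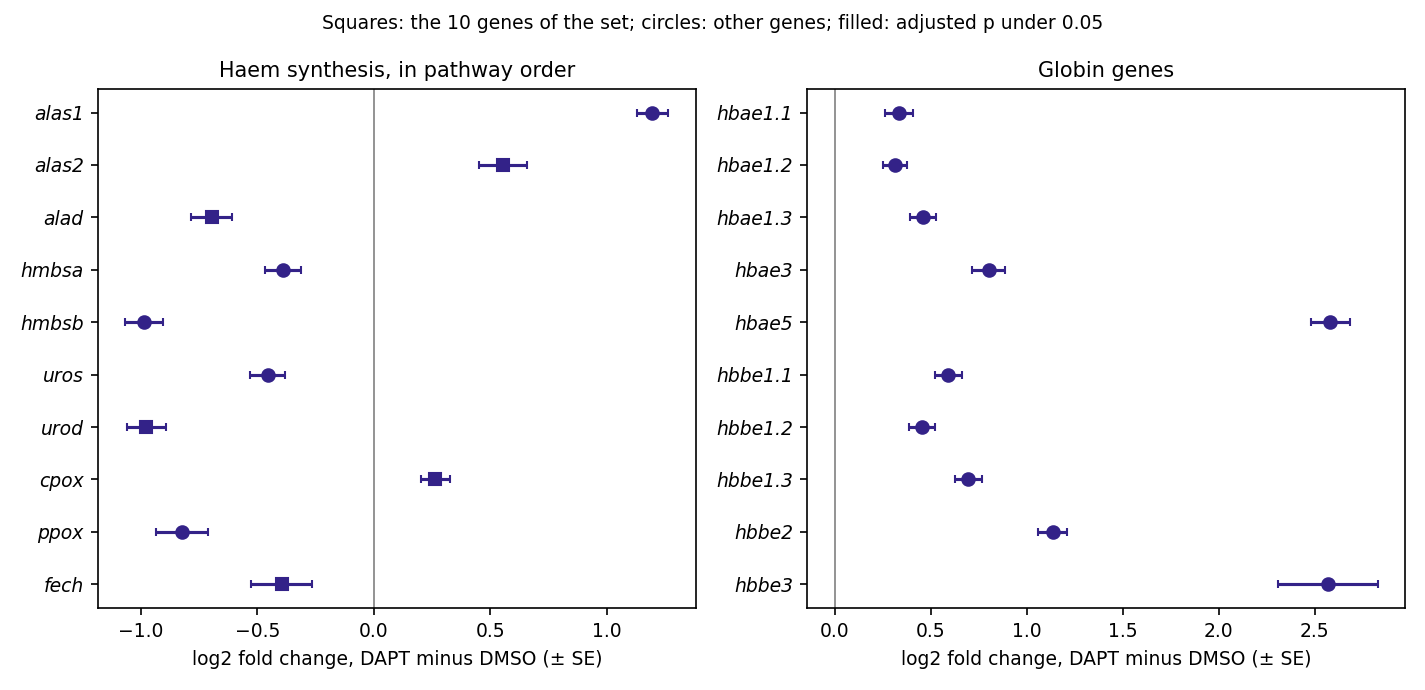
Log2 fold change (DAPT minus DMSO) ± standard error of the 10 haem synthesis genes in pathway order from top to bottom and of the 10 globin genes tested; squares are genes of the set and circles other genes, and all symbols are filled because all passed an adjusted p of 0.05. In the left panel alas1, alas2 and cpox lie to the right of 0 and the other 7 to the left; in the right panel all 10 lie to the right.

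Transcripts for the globins, the protein side of haemoglobin, rose. Of all genes tested 22.4% were called higher. All 10 globin genes tested were higher, from 0.32 ± 0.06 for hbae1.2 to 2.58 ± 0.10 for hbae5, with a median of 0.65, and their summed share went from 0.798 ± 0.0604% to 1.14 ± 0.0392% of all counts. The abundant genes hbae3 and hbbe1.1 went from 1763 ± 184 to 3074 ± 208 CPM and from 1452 ± 119 to 2190 ± 47.2 CPM. The other genes were hbae1.1 (0.33), hbae1.3 (0.46), hbbe1.2 (0.45), hbbe1.3 (0.70), hbbe2 (1.14) and hbbe3 (2.57). Over the 13 alternative analyses that tested it, hbbe3 ran from 2.24 to 3.16. On the TPM scale hbae1.1 and hbae1.2 did not pass (0.16 and 0.15; adjusted p = 0.106 and 0.133). The counts of 6 of these genes, the near-identical hbae1 and hbbe1 copies, were not all whole. They included divided reads, so their single values are uncertain. The adult genes hbaa1, hbba1 and hbba2 were too low to be tested.

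Each gene was also set against the globin counts of the same library. Per 1000 globin counts there were 16.2, 19.7 and 16.3 counts of alas2 with DMSO and 16.9, 15.7 and 17.7 with DAPT, so the groups overlapped and the means of 17.4 ± 2.01 and 16.8 ± 0.997 were within the spread. The other 9 genes were lower per globin count in every DAPT library than in any DMSO library. So were 80.1% of all genes tested, since the globin counts themselves rose, and the median log2 difference of the ratio was -0.62 over the 22031 genes tested that had counts in every library; the 9 of 10 is therefore no result about these genes. The log2 difference was -1.89 for klf1, -1.75 for gata1a, -1.60 for urod, -1.31 for alad, -1.29 for tfr1a, -1.24 for epb41b, -1.02 for fech, -0.82 for hemgn, -0.35 for cpox and -0.05 for alas2. The values of cpox and alas2 lay above that median and those of the other 8 under it, as their fold changes do. This ratio was formed after the values were seen, is given as a description, and does not depend on the scaling between libraries.

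**Figure D5:**
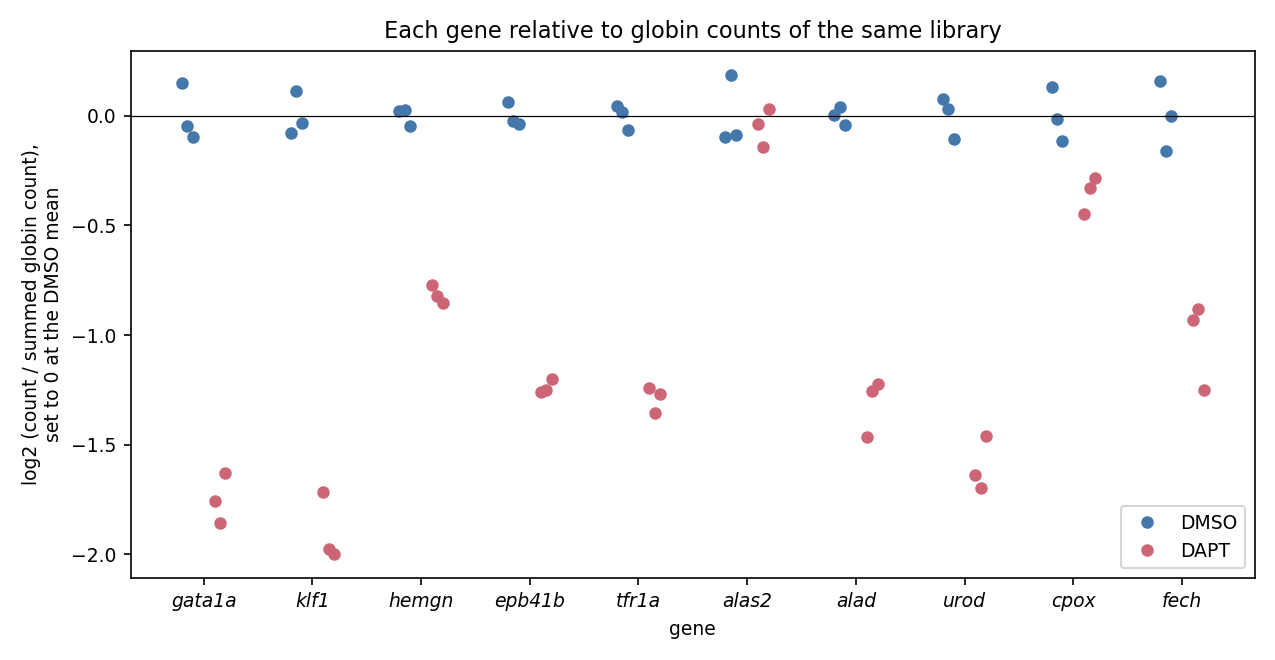
Log2 of each gene's count divided by the summed globin count of the same library, set to 0 at the DMSO mean of that gene (vertical axis); points are single libraries of the DMSO and DAPT groups. DAPT points of alas2 lie among its DMSO points, those of cpox lie at about -0.35, and those of klf1 and gata1a lie lowest, with mean differences of -1.89 and -1.75; the median over all genes lies at -0.62.

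The membrane gene of the set fell. The gene epb41b (gene ID 326287) encodes a protein that ties spectrin and actin to the red cell membrane. Its levels were 79.7, 85.3 and 81.5 CPM with DMSO and 54.3, 51.5 and 54.6 CPM with DAPT. Values within a group were close, with coefficients of variation of 3.51% and 3.17%, and the groups were far apart. The change was -0.62 ± 0.06 (adjusted p = 3.18e-06), to a ratio of 0.651. Its paralogue epb41a, named here after its values were seen, was at -0.16 ± 0.09 and did not pass (adjusted p = 0.16).

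Of 14 red cell membrane genes found, 6 fell, 4 rose and 4 did not pass, with a median of -0.23. The share called was 71.4%, against 46.6% of all genes tested. The largest falls were those of slc4a1a, for the anion exchanger of red cells (-1.26 ± 0.07; 214 ± 18.5 to 89.4 ± 3.57 CPM), and of rhag, for the Rh-associated glycoprotein (-0.97 ± 0.07; 287 ± 21.1 to 147 ± 10.7 CPM). The gene kel, for a surface protease, rose by 0.86 ± 0.11 from a low level of 5.35 ± 0.177 CPM. With library totals alone or on the TPM scale 10 fell and 2 rose. The spectrin gene sptb, named after its values were seen, rose by 0.18 ± 0.06 (adjusted p = 0.0312), with some divided reads. Among 8 genes for red cell enzymes 3 fell, cat (-0.49 ± 0.06), pklr (-0.28 ± 0.06) and cahz (-0.27 ± 0.07, named after its values were seen), 2 rose, hk1 (0.45 ± 0.06) and nt5c3a (0.24 ± 0.06), and 3 did not pass; with library totals alone or on the TPM scale the rise of nt5c3a was lost (0.15 and 0.09), leaving 1. The share called among the 8 enzyme genes was 62.5%. Several of these enzymes and membrane list proteins are also made in other tissues.

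The receptor gene of the set fell as well. The gene tfr1a (gene ID 494477) encodes the transferrin receptor that red cell precursors of zebrafish use to take up iron. It had 178, 199 and 181 CPM with DMSO and 124, 109 and 118 CPM with DAPT. The groups were far apart, with a change of -0.67 ± 0.07 (adjusted p = 7.54e-06) and a ratio of 0.628. Counts of 2 DMSO libraries were not whole and so included divided reads. The paralogue tfr1b, known from tissues other than blood and named after its values were seen, was at 115 ± 11.1 and 137 ± 3.07 CPM (0.25 ± 0.07, adjusted p = 0.0112). On the TPM scale the ratio of tfr1a to tfr1b was 0.644, 0.596 and 0.609 with DMSO and 0.342, 0.298 and 0.337 with DAPT, without overlap. The log2 ratio differed by -0.92 (exact two-sided permutation p = 0.1, the smallest this design allows).

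Other iron genes moved both ways. Of 13 genes for iron uptake and storage 6 rose, 3 fell (tfr1a, tfa and, named after its values were seen, the iron exporter gene slc40a1 at -0.36 ± 0.05) and 4 did not pass. The share called was 69.2%, against 46.6% of all genes tested, and the median was 0.20. The plasma transferrin gene tfa, which is also on the liver list, fell by 1.19 on the log2 scale, from 1092 ± 109.7 to 479 ± 5.48 CPM. The cytosolic aconitase gene aco1, whose protein also binds iron-responsive elements in RNA, rose by 0.51 ± 0.06, and ncoa4, for a receptor in ferritin breakdown, by 0.44 ± 0.05. The largest rise on the list was that of the transferrin receptor gene tfr2, named after its values were seen (1.19, adjusted p = 8.97e-05). Its level was low, with a log2 of the mean CPM of 1.91. With library totals alone 4 of the 13 rose, and on the TPM scale 3.

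A further list held genes for transport and iron-sulphur chemistry that support haem synthesis in mitochondria. Of its 16 genes 7 rose, 8 did not pass and 1 fell, the carrier gene slc25a39 (-0.25 ± 0.08, named after its values were seen). The median was 0.13. The share called on this list was near the 46.6% of all genes tested. Of all genes tested 22.4% were called higher and 24.3% lower. The largest rises were those of slc25a38a, for a glycine carrier that feeds the first step (1.92 ± 0.22; 0.735 ± 0.143 to 2.81 ± 0.282 CPM), and of pgrmc1, for a haem-binding membrane protein (1.03 ± 0.07; 60.0 ± 5.27 to 123 ± 3.16 CPM). The chaperone gene hspa9 rose by 0.32 ± 0.07 and clpxb, for a subunit of the mitochondrial unfoldase that acts on aminolevulinate synthase, by 0.24 ± 0.06; on the TPM scale neither passed (adjusted p = 0.079 and 0.289), nor did clpxb with library totals alone (adjusted p = 0.0698). The number that rose was 4 with library totals alone and 2 on the TPM scale. Of 9 genes for haem breakdown and export 3 fell, hmox1a (-0.51 ± 0.11), flvcr1 (-0.49 ± 0.11) and blvrb (-0.25 ± 0.06), and slc48a1b (0.28 ± 0.08), for a haem transporter, rose, while 5 did not pass. Here too the share called, 44.4%, was near that of all genes tested. The rise of slc48a1b was lost with library totals alone (0.18, adjusted p = 0.0921), on the TPM scale (0.12, adjusted p = 0.218), without DMSO replicate 1 (0.24, adjusted p = 0.0503) and without DAPT replicate 2 (0.25, adjusted p = 0.0546).

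Tissue markers of these libraries also differed between groups. Their counts are read against the 46.6% of all genes tested that passed. Heart muscle genes rose in 6 of 6 cases, among them nppa (1.55 ± 0.09, with some divided reads) and myh6 (1.93 ± 0.11), with sums of 3276 to 4169 CPM in DMSO and 7238 to 7601 CPM in DAPT libraries, and endothelial genes in 5 of 6, among them cdh5 (0.87 ± 0.06) and kdr (0.79 ± 0.07), with sums of 363 to 433 and 589.6 to 625 CPM. Genes of retina and neurons fell in 5 of 6 cases, including snap25a (-0.88 ± 0.06) and rlbp1a (-4.52 ± 0.23), with sums of 1621 to 2351 and 1004 to 1033 CPM. Exocrine pancreas genes fell in 5 of 5, including amy2a and ela2l (both -3.41), with sums of 877 to 1116 and 357 to 401 CPM. Kidney genes, of interest because the kidney is a later site of blood formation in fish, had 1 of 6 higher, cdh17 (0.28 ± 0.06, named after its values were seen), 2 lower, slc20a1a (-0.75 ± 0.11) and pax2a (-0.47 ± 0.09), and 3 not passing, with sums of 318 to 364 and 334 to 359.6 CPM. Skeletal muscle genes had 2 of 6 higher, mylpfa (0.56 ± 0.12) and ckma (0.39 ± 0.09), and 4 not passing, with sums of 6202 to 8361 and 8169 to 9609 CPM. Except for the adult globins, no marker on any list was at 0 in any library. How far the tissue makeup of the libraries enters the values of the 10 genes was not tested.

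The genes whose pattern over the 6 libraries was most like that of alas2 were pla2g12b, si:ch211-214j8.1, ndufa4, acsl5 and sdr16c5b, in that order. Likeness was the root mean square difference of log2 CPM, each gene centred over the 6 libraries, among 12067 genes with a symbol and at least 10 CPM, and ran from 0.0707 to 0.0853 for these 5. Like alas2, all 5 had their highest DMSO value in replicate 2. This largely follows from choosing them by likeness over these same libraries and is no separate result. For gata1a the nearest were syngap1b, LOC108179091, cilp, the gene with ID 560599 and gdpd2, with differences of 0.0425 to 0.0663. Counts of LOC108179091 and of the gene with ID 560599 included some divided reads. These genes too were chosen by likeness over the same libraries, so their shared pattern is no separate result.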

How the data were processed

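RNA sequencing libraries of 3 DMSO and 3 DAPT samples were analysed. The deposited table gives, per the file headers, a read count, an FPKM and a TPM for each gene and library; 15.2 to 16.0% of the counts were not whole, so the counts made by the authors were treated as estimated counts; how reads were divided is not given in the sources used here. TPM (a level per length) was calculated by the authors and used as deposited. FPKM, also the authors', was not used. The build GRCz11 and the tools featureCounts 1.6.0, STAR 2.7.1a and edgeR are named in the submitters' processing notes; their roles, the annotation and the strand setting are not given in the sources used here.

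Estimated counts were rounded and fitted for the whole table with edgeR 4.0.16 in R 4.3.3 (filterByExpr by group, TMM factors, quasi-likelihood F test, 4 residual degrees of freedom, Benjamini-Hochberg over 22092 genes). The standard error is the log2 fold change over the square root of F. Ratios were tested with exact permutation tests. Alternatives were DESeq2 1.42.0, limma-voom and limma on log2(TPM + 1) (limma 3.58.1), library totals, other filters (none, or 5 CPM in 3 libraries), leaving out the 20 most abundant genes or 1 library, and a replicate block. The test was checked on simulated counts in which 200 genes were changed. That is far fewer than the 10302 genes called here, so the check does not cover changes as broad as these.

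Genes and lists were chosen with earlier results of these data known. Of 178 list entries 175 were found (RefSeq synonyms gave 2); the others are not analysed here. Named were the 10 genes, the tested genes of the haem, transcription and globin lists, up to 4 per other pathway list and 2 per marker list by smallest p, and the 5 nearest patterns to alas2 and gata1a; others are said to be chosen after their values were seen.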

Additional observations from a re-analysis of the deposited data

How the results depend on the processing

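The direction of all 10 genes of the set was kept in 14 alternatives each. The genes alad, alas2, urod, gata1a, klf1, epb41b and tfr1a stayed past the threshold in every one; alas2 ran from 0.41 to 0.70, gata1a from -1.22 to -1.05 and klf1 from -1.39 to -1.17. The calls of cpox (0.10 with log2(TPM + 1)), fech (-0.39 with DESeq2; -0.46 to -0.28 leaving out 1 library) and hemgn (-0.19 with DESeq2; -0.24 to -0.14 leaving out 1 library) were lost in some. With log2(TPM + 1) 1 gene of the set and 2611 of all genes were higher, against 2 and 4940; the median over genes of the shift in log2 fold change was -0.14 on that scale and -0.098 with library totals. Counts of genes that rose on the lists changed with the TPM scale to 2 (mitochondrial support), 0 (breakdown and export, limma; also 0 at an unadjusted p under 0.05), 3 (iron), 2 (membrane) and 1 (red cell enzymes), and with library totals to 4, 0 (edgeR; 1 at an unadjusted p under 0.05), 4, 2 and 1. Of mitochondrial support genes 4 rose with the stricter filter, which tests fewer genes, as it does for transcription genes, where 2 rose. Those lower were 0 with DESeq2 (1 at an unadjusted p under 0.05), and 2 with library totals or TPM; leaving out 1 library gave 0 to 1, and 0 to 2 for breakdown genes that rose. Lower membrane genes were 10 with library totals and with TPM. The sign of bcl11aa turned with library totals (-0.061) and TPM (-0.11), and that of klf3 with TPM (-0.026). The cause of these shifts was not tested. Libraries with the same replicate number did not deviate together from their group means (correlations of these deviations of -0.0679 to 0.00917). Nor did the deviations of any library correlate above 0.1 with those of a library of the other group. With the replicate block 9716 genes were called in place of 10302, and all 10 of the set, 8 lower and 2 higher. Depth limits fech most, at 78 to 127 counts a library.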

Other observations

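DMSO replicate 2 was the highest DMSO library for 8 of the 10 genes, alas2, klf1 and tfr1a among them, against 34.4% of all genes tested. DAPT replicate 2 was the lowest DAPT library for 6 of the 10, against 34.3% of all genes tested. Without DMSO replicate 2 alas2 was at 0.70 and without DMSO replicate 1 at 0.46, both past the threshold.

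Deposited counts and TPM moved together between libraries for 9 of the 10 genes, where their ratio had a coefficient of variation of at most 0.43%. For fech it was 5.93%. Of 17105 genes with at least 50 counts in every library, 2.25% were over 5%, and the median was 0.354%.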
